A study of Mus musculus with 3 samples.

Results

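The ATP-binding cassette (ABC) transporter genes were described in JC, a carcinoma line of the mouse mammary gland, across 3 populations kept in culture. They are the rows of the deposited expression table whose symbol is Abc, a family letter from a to g, a number and at most 1 further letter. The rule found 50 genes among 55471 features, with 0 repeated symbols. Each population gave 1 library of polyadenylated RNA. JC-WT is the line labelled WT. JC-P cells were taken from mammary fat pad tumours at day 14. JC-M3 cells were taken from lung lesions after 3 rounds of tail vein injection that began with JC-P-derived cells, with 28 days per round in the series design. All 3 populations share the cell line and a genotype label of WT, and were grown in DMEM with serum. JC-P and JC-M3 carry the same treatment label, metastasis, and only the protocol gives the fat pad as the source of JC-P.

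ABC proteins use ATP bound by conserved nucleotide-binding cassettes to move substrates across membranes. Some pump drugs and conjugated metabolites out of cells, some move sterols and phospholipids, and others serve mitochondria, peroxisomes and lysosomes. The E and F families have cassettes but no membrane domains and act on ribosomes and translation. In breast tumours the drug pumps are known for their part in resistance to chemotherapy. Most ABC proteins need a pair of cassettes, carried on 1 chain or brought together by dimerisation.

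Transcript levels are given as TPM, in which reads per gene are divided by gene length and scaled to the same total in every library. Recovered from the deposited values, the reads assigned to genes numbered 18093426 (JC-WT), 22132593 (JC-P) and 23386413 (JC-M3). Genes that averaged 1 TPM or more count as measured, which held for 28 of the 50 ABC genes and for 14527 of all features. Ratios are log2 values of TPM + 0.5, which understate the differences of low genes. The range in parentheses after a ratio is the exact 95% counting interval of the plain TPM ratio, so it can leave out the ratio of a low gene. With 1 library per population differences have no replicate check and were not tested for significance, and intervals cover counting error only. The cell type label reads epithelial-like, and of 7 epithelial markers Krt8 and Krt18 passed the filter on the mean. Krt8 stood at 1503, 1873 and 681 TPM across JC-WT, JC-P and JC-M3, while Epcam had 0 reads in every library and Cdh1 had 0, 25 and 21 reads. Among markers of other cells, 7 fibroblast markers summed to 41.8, 110.5 and 56.1 TPM across JC-WT, JC-P and JC-M3, and 7 endothelial markers to 7.87, 35.9 and 3.08 TPM. The JC-P endothelial sum came mostly from Cdh5, at 0.0887, 17.7 and 0.104 TPM, and Plvap, at 7.60, 17.8 and 2.71 TPM, while Kdr and Cldn5 were at 0 in all libraries. Of the fibroblast markers, Pdgfra stood at 34.1, 47.6 and 20.1 TPM and Lum was at 0. The leukocyte marker Ptprc was also at 0. The part of these cells in the ABC results was not tested. In bulk RNA, fewer cells of a type and less RNA per cell cannot be told apart.

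The ABC genes as a whole kept much the same summed level in the populations, at 1268, 1188 and 1245 TPM across JC-WT, JC-P and JC-M3 libraries. Most of that sum came from the 4 genes without membrane domains, and the transporters proper were modest in level. By class, the summed level across JC-WT, JC-P and JC-M3 was 152, 132 and 132 TPM for 11 drug and conjugate efflux genes, and 139.7, 185 and 154 TPM for 18 lipid and sterol transport genes. Mitochondrial transporters summed to 72.1, 75.6 and 77.6 TPM, peroxisomal ones to 67.8, 79.4 and 65.9 TPM and lysosomal ones to 39.9, 38.5 and 21.5 TPM. The lysosomal pair thus had its lowest sum in JC-M3, and the lipid genes had their highest in JC-P. A mean of at least 10 TPM was reached by 20 ABC genes and one of at least 100 TPM by 3 of them.

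**Figure D1:**
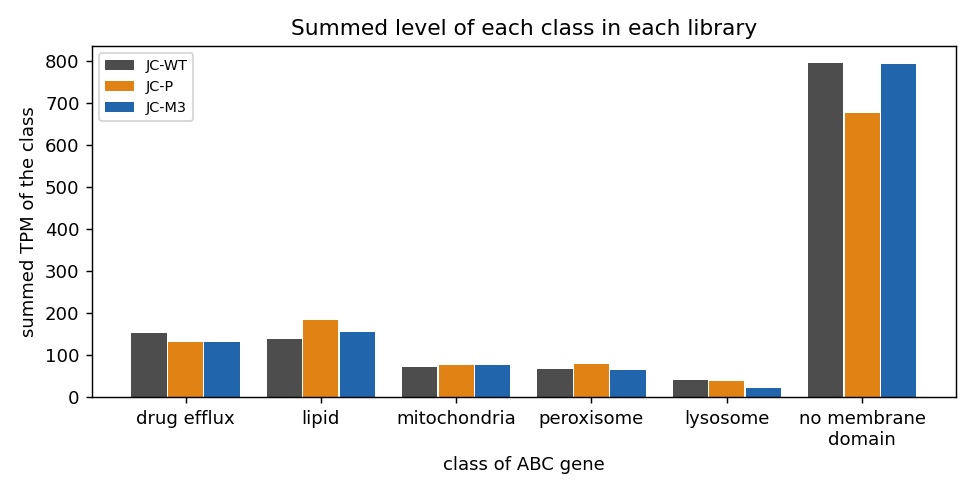
Summed TPM of each class of ABC gene in each library (vertical axis from 0; bars for JC-WT, JC-P and JC-M3). Genes without membrane domains summed to 797, 677 and 794 TPM across the libraries JC-WT, JC-P and JC-M3, far above every transporter class.

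Few ABC genes differed by 2-fold between populations. For JC-P against JC-WT, 0 of 28 measured ABC genes were at least 2-fold higher or lower, while 7.10% of all measured features were past 2-fold in either direction, 4.76% higher and 2.33% lower. For JC-M3 against JC-P, 3 of 28 were at least 2-fold lower (10.7%, against 5.38% of all features) and 0 were higher (against 3.82%, with 9.20% in either direction). For JC-M3 against JC-WT, 2 were higher (7.14%, against 6.14%) and 3 were lower (10.7%, against 5.27%, with 11.4% in either direction). Among the 11405 measured protein-coding features the shares were smaller, at 2.42% higher and 1.22% lower for JC-P against JC-WT, 2.77% and 4.02% for JC-M3 against JC-P, and 4.19% and 4.28% for JC-M3 against JC-WT. At 28 genes the shares of ABC genes differ from either background by under 2 genes in each direction, and they were not read as a property of the family. The median log2 ratio of the 28 genes was 0.04 for JC-P against JC-WT, -0.12 for JC-M3 against JC-P and -0.03 for JC-M3 against JC-WT, against 0.01, -0.01 and 0.00 for all features. The last comparison shares JC-M3 with the one and JC-WT with the other, so the 3 are not independent. Many smaller differences exceeded counting error, since of the 28 intervals 21, 24 and 20 left out no change, in the order of the comparisons above. From the lowest to the highest library, the level + 0.5 TPM varied by a median of 1.48-fold for the ABC genes and by 1.40-fold for all features. That span was at least 2-fold for 21.4% of the ABC genes and 17.0% of all features. The 6 genes that passed 2-fold somewhere were the drug pump gene Abcb1a, the conjugate pump genes Abcc3 and Abcc4, the lipid genes Abca1 and Abca9, and the lysosomal gene Abcb9.

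**Figure D2:**
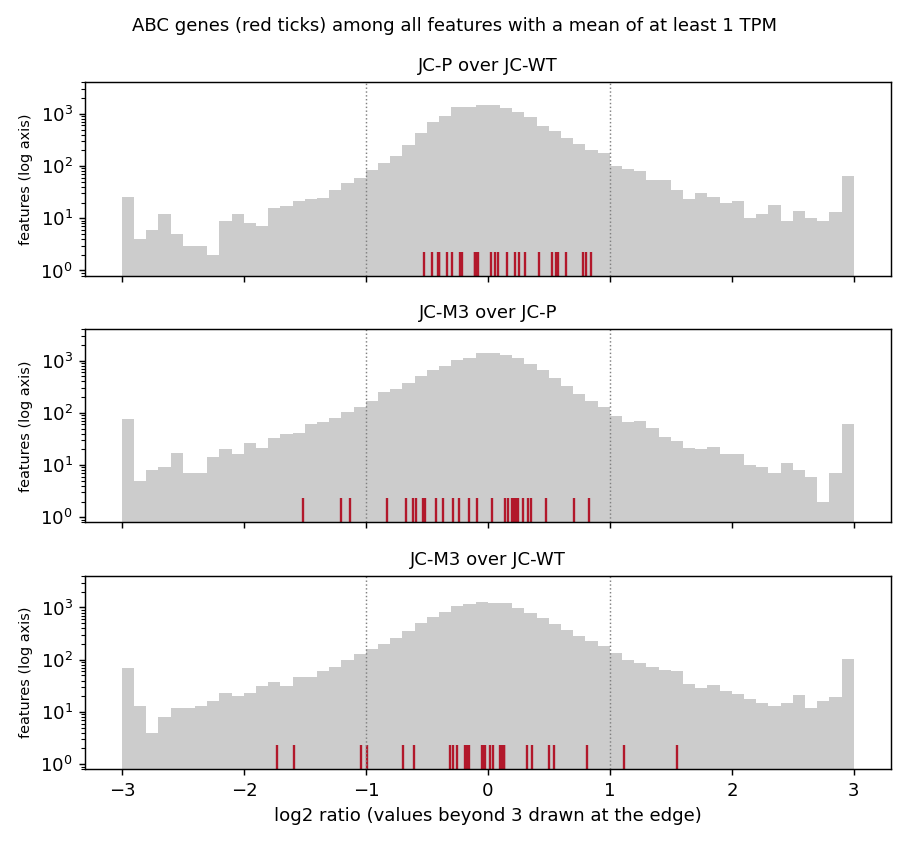
Log2 ratio of TPM + 0.5 (horizontal axis) of the 28 measured ABC genes (red ticks) and of all 14527 measured features (grey histogram, log count axis) in the 3 comparisons. Dotted lines mark 2-fold; 0 red ticks lie outside them for JC-P against JC-WT, 3 for JC-M3 against JC-P and 5 for JC-M3 against JC-WT.

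Among drug and conjugate efflux genes, Abcb1a was at least 2-fold higher in JC-M3 than in JC-WT, and Abcc3 and Abcc4, of the multidrug resistance protein (Abcc) family, were at least 2-fold lower. The 5 other measured genes of the class were within 2-fold. None of the 3 differences was past 2-fold in every setting. Abcc3 and Abcc4 were within 2-fold with a larger pseudocount. For Abcb1a it was the sum with its neighbour Abcb1b, most of it from Abcb1b, that lay within 2-fold. P-glycoprotein, a broad pump of hydrophobic drugs, is encoded in mouse by the neighbouring genes Abcb1a and Abcb1b, where human has 1 gene. Abcb1a lies on chromosome 5 from 8660077 to 8748575 and Abcb1b from 8798147 to 8866315, both on the plus strand (GRCm38, GENCODE M21). Abcb1a stood at 8.81, 14.0 and 19.6 TPM across JC-WT, JC-P and JC-M3, from 259, 504 and 738 reads. It was lowest in JC-WT and highest in JC-M3, with log2 ratios of 0.64 (0.45 to 0.89) for JC-P against JC-WT, 0.47 (0.32 to 0.65) for JC-M3 against JC-P and 1.11 (0.95 to 1.37) for JC-M3 against JC-WT. Abcb1b stood at 27.7, 21.9 and 39.3 TPM, from 1187, 1150 and 2155 reads. It was lowest in JC-P instead, with ratios of -0.33 (-0.46 to -0.22), 0.83 (0.74 to 0.95) and 0.50 (0.40 to 0.61). Together the pair held 36.5, 35.9 and 58.9 TPM, and Abcb1a made up 24.1%, 39.0% and 33.3% of it across JC-WT, JC-P and JC-M3. Summed over the pair, the level of JC-P thus lay close to that of JC-WT although the members differed in opposite directions.

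How reads divide between Abcb1a and Abcb1b is uncertain, because the genes are alike in sequence. Their encoded proteins were 84.3% identical over 1273 aligned residues, and 16.3% of the 50-base windows of Abcb1a transcripts also occur in Abcb1b. Of the windows of Abcb1b transcripts, 11.1% occur in Abcb1a. Counting every other gene, on either strand, 22.5% of Abcb1a windows and 12.8% of Abcb1b windows were shared. With both genes summed, the log2 ratio of JC-M3 against JC-WT was 0.68, which is under 2-fold, and that of JC-P against JC-WT was -0.02. The bases that encode the start of the ATP-binding site show this likeness. They are the coding bases around the first Walker A motif, the loop that holds the phosphates of ATP, from GENCODE M21 transcripts, with the 24 bases of the motif in capitals. A script found the stretch of the Abcb1a transcript to be the same as that of Abcb1b over all 42 bases, while Abcb4, their neighbour, differed at 2 of them.
Abcb1a: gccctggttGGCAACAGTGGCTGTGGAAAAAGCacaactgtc
Abcb1b: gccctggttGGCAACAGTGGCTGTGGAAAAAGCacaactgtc
Abcb4: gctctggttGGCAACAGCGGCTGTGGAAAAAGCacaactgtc
Abcb4, which encodes a phosphatidylcholine pump of bile canaliculi, had 0, 1 and 1 reads across JC-WT, JC-P and JC-M3. Abcb4 was thus at the floor of detection, beside neighbours that were measured in every library.

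The Abcc genes of the drug efflux class include those of pumps of organic anions and of drugs conjugated with glutathione, glucuronate or sulphate. Abcc4, which also exports cyclic nucleotides and prostaglandins, stood at 31.6, 27.3 and 15.1 TPM across JC-WT, JC-P and JC-M3, from 1085, 1147 and 664 reads. It was lowest in JC-M3, with a log2 ratio of -0.21 (-0.33 to -0.09) for JC-P against JC-WT, -0.83 (-0.99 to -0.71) for JC-M3 against JC-P and -1.04 (-1.20 to -0.92) for JC-M3 against JC-WT. Abcc4 lies on chromosome 14, whose 387 measured protein-coding genes had a median of -0.29 for JC-M3 against JC-WT, and with that median subtracted the ratio was -0.75, no longer past 2-fold. With a pseudocount of 2 it was -0.97. Abcc3, a pump of bile acids and glucuronides, had 56, 42 and 8 reads, or 1.83, 1.12 and 0.205 TPM. It was the lowest ratio of the family for JC-M3 against JC-WT at -1.73 (-4.44 to -2.08), but it rests on few reads, and with a pseudocount of 2 it was -0.80. For JC-M3 against JC-P the ratio was -1.20 (-3.76 to -1.35), or -0.50 with a pseudocount of 2. Abcc5, an exporter of cyclic nucleotides and glutamate conjugates, was the most abundant drug efflux gene by mean level, at 57.5, 43.2 and 35.4 TPM. Its ratio of JC-M3 against JC-WT was -0.69 (-0.78 to -0.63), inside 2-fold. Abcc10 followed the same order at 5.49, 5.15 and 3.44 TPM, a ratio of -0.60 (-0.98 to -0.37) for JC-M3 against JC-WT. Abcc1, the glutathione conjugate pump known as MRP1, was level at 17.6, 18.4 and 17.2 TPM, and each of its 3 intervals included no change.

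Abcg2, the breast cancer resistance protein gene, was scarcely expressed. It had 44, 63 and 77 reads, or 1.01, 1.18 and 1.38 TPM across JC-WT, JC-P and JC-M3, and its ratio of JC-M3 against JC-WT was 0.32 (-0.10 to 1.02), an interval that includes no change. Below the filter on the mean, Abcc2, which pumps conjugates into bile, had 5, 0 and 1 reads, Abcc6 had 0, 1 and 4 reads and Abcc12 had 1, 1 and 2 reads. Of the 8 measured drug efflux genes, 3 had a ratio above 0 and 5 below for JC-M3 against JC-WT, with a median of -0.32. In that comparison 1 was at least 2-fold higher (6.14% of all features were) and 2 were lower (5.27% of all features). The median was -0.15 for JC-P against JC-WT and -0.19 for JC-M3 against JC-P. Without the filter on the mean, the medians of the class were -0.08 for JC-P against JC-WT, 0.05 for JC-M3 against JC-P and -0.04 for JC-M3 against JC-WT, so that the second turned its direction.

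**Figure D3:**
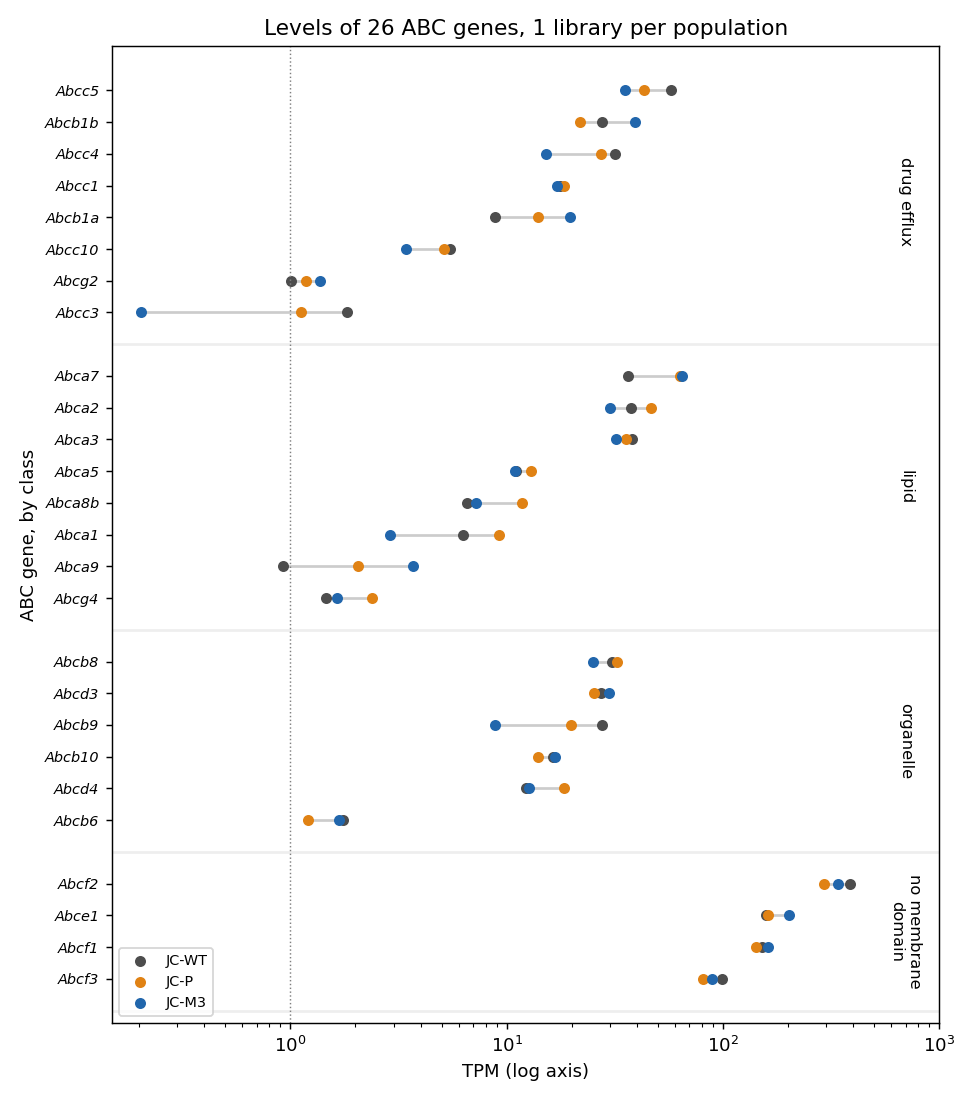
TPM (log axis) of 26 measured ABC genes in each library (points for JC-WT, JC-P and JC-M3, joined by a grey line), by class and mean level. Abcc3, Abcb9, Abca9, Abca1, Abcb1a and Abcc4 show the widest spans, and the 4 genes without membrane domains lie between 80.9 and 388 TPM.

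Among lipid and sterol transport genes, levels in JC-P tended to lie above those in JC-WT, and the sterol exporters Abca1 and Abcg1 were lowest in JC-M3. Of the 8 measured genes, 7 had a ratio above 0 for JC-P against JC-WT, with a median of 0.54 and none past 2-fold (0.20 with no filter on the mean). The median was 0.39 with a pseudocount of 2 and 0.41 when genes had to average 5 TPM. Of all 14527 measured features, 7389 lay above 0, with a median of 0.01. For JC-M3 against JC-P, 6 of the 8 genes lay below 0 with a median of -0.33 (-0.11 with no filter). So did 7366 of all features, with a median of -0.01. Both comparisons share the JC-P library. The summed fibroblast, endothelial, epithelial and alveolar epithelial markers were also highest in JC-P, while the myeloid sum was highest in JC-WT. Single fibroblast markers differed, with Pdgfra and Col3a1 highest in JC-P, Dcn and Col1a2 in JC-M3 and Dpt in JC-WT. The part of such cells in these ratios was not tested. For JC-M3 against JC-WT the median was 0.05, with 4 above and 4 below. Abca1, the exporter of cholesterol and phospholipid to apolipoprotein A-I, stood at 6.26, 9.21 and 2.90 TPM across JC-WT, JC-P and JC-M3, from 348, 627 and 206 reads. Its ratio was 0.52 (0.37 to 0.75) for JC-P against JC-WT and -1.51 (-1.90 to -1.44) for JC-M3 against JC-P. For JC-M3 against JC-WT it was -0.99 (-1.37 to -0.86), just inside 2-fold, and -1.08 with a pseudocount of 0.1. Abcg1, which exports cholesterol to high-density lipoprotein, had 15, 24 and 0 reads, or 0.383, 0.50 and 0 TPM, and so lay below the filter. Against a floor of 3 reads in the JC-M3 library, or 0.0599 TPM, it was at least 8.35-fold lower in JC-M3 than in JC-P, and than in JC-WT at least 6.39-fold lower. These bounds ignore counting error in the library above the floor, and the upper limits of the log2 intervals were -2.65 and -2.20. Abcg4, the sterol exporter most like Abcg1 with 70.6% identical residues, had 41, 82 and 59 reads, or 1.47, 2.39 and 1.65 TPM. It was highest in JC-P, and in JC-M3 it was near its level in JC-WT.

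Abca7, a phospholipid transporter known from phagocytosis and, in human, from Alzheimer risk, is the closest relative of Abca1 in the family, with 54.1% identical residues, and it had another profile. It stood at 36.6, 63.0 and 64.4 TPM across JC-WT, JC-P and JC-M3, from 1325, 2797 and 2985 reads. The ratio was 0.78 (0.69 to 0.88) for JC-P against JC-WT, 0.03 (-0.04 to 0.11) for JC-M3 against JC-P and 0.81 (0.72 to 0.91) for JC-M3 against JC-WT. It stood above its JC-WT level in JC-P and in JC-M3, by under 2-fold, and the interval between JC-M3 and JC-P included no change. Chromosome 10, where it lies, had a median of 0.42 for JC-M3 against JC-WT over 556 measured protein-coding genes, and with that subtracted its ratio was 0.39. Abca2, a lipid transporter of late endosomes and lysosomes, stood at 37.6, 46.6 and 30.2 TPM. Abca3, which loads phospholipid into the lamellar bodies of lung surfactant cells, stood at 38.1, 35.5 and 31.9 TPM. Abca3 was slightly lower in JC-M3, the lung-derived population, than in JC-WT, with a ratio of -0.25 (-0.35 to -0.17). Of 6 alveolar epithelial markers, 4 were at 0 in each library and the list summed to 1.27, 3.05 and 2.69 TPM.

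A cluster of 5 Abca genes lies side by side on chromosome 11, from Abca8b, Abca8a, Abca9 and Abca6 to Abca5, all on the minus strand between 109932190 and 110337716 (GRCm38). Their levels differed although they are neighbours. Abca5, a transporter of lysosomes and late endosomes, stood at 11.1, 13.0 and 10.9 TPM across JC-WT, JC-P and JC-M3. Abca8b stood at 6.53, 11.8 and 7.19 TPM and was highest in JC-P, with a ratio of 0.80 (0.64 to 1.07) for JC-P against JC-WT and -0.67 (-0.90 to -0.52) for JC-M3 against JC-P. Abca9 had 40, 109 and 203 reads, or 0.926, 2.06 and 3.68 TPM, and was highest in JC-M3. Its ratio was 0.84 (0.62 to 1.71) for JC-P against JC-WT, 0.71 (0.49 to 1.18) for JC-M3 against JC-P and 1.55 (1.49 to 2.52) for JC-M3 against JC-WT, the highest of the family in the last comparison. With a pseudocount of 2 the last ratio was 0.96, and with one of 0.1 the first was 1.07. Abca8a had 22, 23 and 37 reads and Abca6 had 1, 3 and 2 reads, both under the filter. The encoded proteins of Abca8a and Abca8b were 66.9% identical and those of Abca8b and Abca9 63.4% identical, but at most 1.64% of the 50-base windows of Abca8a, 2.45% of Abca8b and 0.162% of Abca9 occur in other genes. Dcn, one of the 7 fibroblast markers, was likewise lowest in JC-WT and highest in JC-M3, at 1.24, 14.0 and 22.5 TPM, whereas Col3a1, at 3.99, 46.0 and 8.76 TPM, was highest in JC-P. Their part in the levels of Abca8b and Abca9 was not tested.

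**Figure D4:**
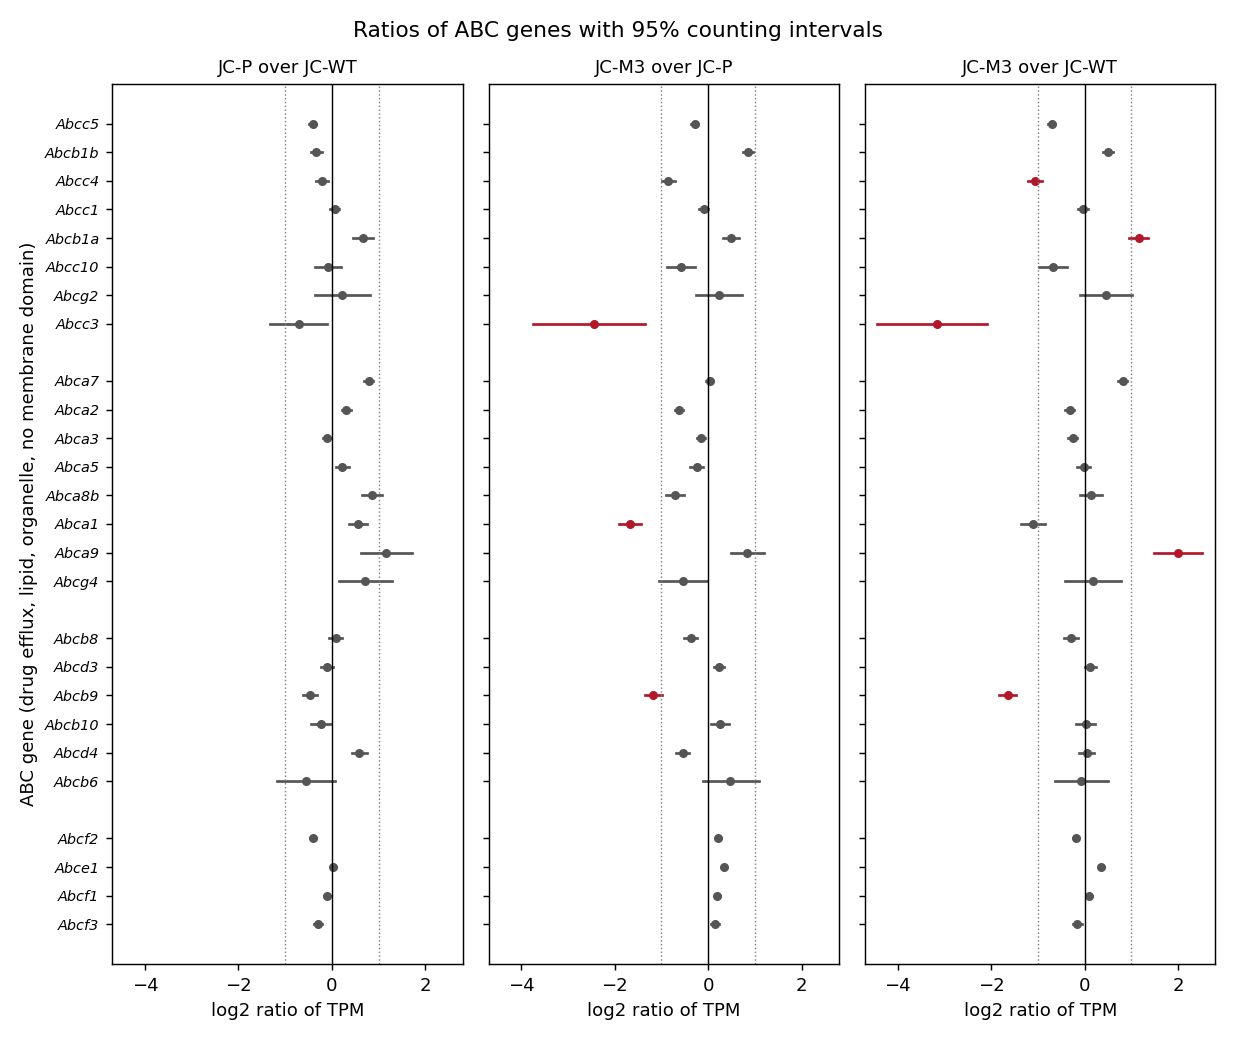
Log2 ratio of plain TPM (points) with 95% exact counting intervals (bars) of 26 measured ABC genes in the 3 comparisons, by class from drug efflux at the top to genes without membrane domains. Red marks genes at least 2-fold apart on the TPM + 0.5 scale, 0 in the left panel, 3 in the middle and 5 on the right; dotted lines mark 2-fold.

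Among organelle transporters, Abcb9 was lower in JC-M3, and the other measured genes of mitochondria, peroxisomes and lysosomes stayed within 2-fold. That was 1 of 8 genes against JC-P and against JC-WT, where 5.38% and 5.27% of all features were at least 2-fold lower. Abcb9 encodes a peptide transporter of the lysosomal membrane. It stood at 27.6, 19.9 and 8.85 TPM across JC-WT, JC-P and JC-M3, from 830, 734 and 340 reads. The ratio was -0.46 (-0.61 to -0.32) for JC-P against JC-WT, -1.13 (-1.36 to -0.98) for JC-M3 against JC-P and -1.59 (-1.83 to -1.46) for JC-M3 against JC-WT. Abcb9 stayed at least 2-fold lower in JC-M3 in both comparisons with pseudocounts of 0.1 and 2, with both other scalings and with the chromosome median subtracted. Abcd4, which brings vitamin B12 out of lysosomes together with Lmbrd1, was highest in JC-P at 12.3, 18.5 and 12.7 TPM. Its ratio was 0.57 (0.44 to 0.75) for JC-P against JC-WT and -0.53 (-0.69 to -0.41) for JC-M3 against JC-P. Its partner Lmbrd1 stood at 20.2, 25.4 and 20.4 TPM, also highest in JC-P. Mmachc, which receives the vitamin in the cytosol, stood at 14.2, 12.4 and 26.8 TPM and was highest in JC-M3, with a ratio of 1.08 (0.86 to 1.37) for JC-M3 against JC-P.

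The mitochondrial transporters differed little. Abcb10, linked to haem synthesis, stood at 16.4, 14.0 and 16.7 TPM across JC-WT, JC-P and JC-M3, and its ratio was 0.25 (0.06 to 0.45) for JC-M3 against JC-P. Abcb8, linked to mitochondrial iron export, stood at 30.6, 32.5 and 25.0 TPM and was lowest in JC-M3, with a ratio of -0.37 (-0.51 to -0.24) in the same comparison. Abcb6, a porphyrin transporter, had 50, 42 and 61 reads, or 1.75, 1.20 and 1.67 TPM, and each of its intervals included no change. Its level is uncertain, since 55.2% of its exon length overlaps the same-strand transcript Gm29253, which had 0 TPM in every library. Among 17 genes of mitochondrial iron, haem and cluster synthesis, all measured, 14 lay below 0 for JC-P against JC-WT with a median of -0.30. For JC-M3 against JC-P and JC-M3 against JC-WT, 0 of the 17 passed 2-fold in either direction, with medians of 0.04 and -0.12. Of all features, 9.20% and 11.4% did so.

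The peroxisomal transporters carry acyl chains into the organelle for oxidation. Abcd3, encoding an abundant peroxisomal membrane protein, stood at 27.4, 25.4 and 29.8 TPM across JC-WT, JC-P and JC-M3. Its ratio was 0.23 (0.12 to 0.35) for JC-M3 against JC-P and well inside 2-fold. Abcd2, a transporter of the same membrane, had 28, 39 and 41 reads and lay just under the filter. Of 11 genes of peroxisomal fatty acid oxidation, 9 were measured and 0 passed 2-fold in any comparison. The shares of all features were 7.10% for JC-P against JC-WT, 9.20% for JC-M3 against JC-P and 11.4% for JC-M3 against JC-WT. Of the 9 measured genes, 7 lay below 0 for JC-M3 against JC-P, with a median of -0.39.

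The genes without membrane domains were the most abundant of the family and stayed within 2-fold. Of all features, 7.10% passed 2-fold for JC-P against JC-WT, 9.20% for JC-M3 against JC-P and 11.4% for JC-M3 against JC-WT. With 4 genes this was not read as a trait of the class. Abcf2 stood at 388, 293 and 339 TPM across JC-WT, JC-P and JC-M3. Abce1, which splits ribosomes for recycling, stood at 158, 161 and 203 TPM. Abcf1, which acts in translation initiation, stood at 152, 142 and 163 TPM, and Abcf3 at 99.1, 80.9 and 89.1 TPM. All 4 lay above 0 for JC-M3 against JC-P with intervals that left out no change, from 0.14 (0.05 to 0.23) for Abcf3 to 0.33 (0.28 to 0.38) for Abce1. For each of them the highest library was at most 1.32-fold above the lowest. Their share of the summed ABC level was 62.8%, 57.0% and 63.8%.

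The remaining ABC genes were at or near the limit of detection. In all, 10 of the 50 had 0 reads in every library. These were Abca12, Abca13, Abca14, Abca15, Abcb5, Abcc8, Abcc9, Abcg3, Abcg5 and Abcg8. They include the sulphonylurea receptor genes Abcc8 and Abcc9, whose potassium channel partners Kcnj8 and Kcnj11 also had 0 reads, and the plant sterol exporters Abcg5 and Abcg8. A further 12 had reads but a mean under 1 TPM. Besides Abcd2, Abca8a, Abca6, Abcg1, Abcb4, Abcc2, Abcc6 and Abcc12, these were Abcb11, the bile salt pump gene, with 2, 3 and 8 reads, Abca4, the retinal transporter gene, with 4, 0 and 5 reads, Abca17 with 0, 3 and 0 reads and Abca16 with 0, 0 and 3 reads. A count of 0 allows up to 3 reads, so low expression of these genes was not detectable at this depth.

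Genes that regulate or work beside the transporters were mostly within 2-fold. Of 17 regulators, 12 were measured, and 1 was at least 2-fold higher in each comparison and 0 lower. For JC-P against JC-WT, 4.76% of all features were higher and 2.33% lower. The shares were 3.82% and 5.38% for JC-M3 against JC-P, and 6.14% and 5.27% for JC-M3 against JC-WT. The regulator past 2-fold was Nr1h4, the bile acid receptor FXR, with 2, 14 and 96 reads across JC-WT, JC-P and JC-M3, or 0.162, 0.925 and 6.08 TPM. It was highest in JC-M3, with a ratio of 2.21 (1.90 to 3.64) for JC-M3 against JC-P. The sterol sensor genes of the liver X receptor showed no such span, with Nr1h2 at 45.1, 51.8 and 46.8 TPM and Nr1h3 at 8, 8 and 5 reads. Among 7 measured liver X receptor targets other than ABC genes, 5 lay below 0 for JC-M3 against JC-P, as did Abca1, with a median of -0.39 and 0 at least 2-fold lower. The lowest was Lpcat3, a phospholipid acyltransferase gene, at 44.5 TPM in JC-M3, against 69.0 TPM in JC-P. In the other direction, Pltp, the phospholipid transfer protein gene, stood at 22.8 TPM in JC-M3, against 1.78 TPM in JC-P, a ratio of 3.35 (3.14 to 4.27). Targets of the receptor thus lay on both sides. Of 9 sterol uptake and efflux partners, 8 were measured and 0 passed 2-fold in any comparison.

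Conjugating enzymes and uptake carriers handle the substrates of the drug efflux pumps. Of 15 genes of glutathione and NRF2 metabolism, 3 were at least 2-fold lower for JC-M3 against JC-WT and 0 higher, with a median of -0.28, where 5.27% of all features were lower and 6.14% higher. These were Gsta4, a glutathione transferase gene, at 50.7 TPM in JC-M3 and 243 TPM in JC-WT, Mgst1, a membrane-bound transferase gene, at 15.6 TPM in JC-M3 and 44.6 TPM in JC-WT, and Hmox1, encoding haem oxygenase, at 105 TPM in JC-M3 and 264 TPM in JC-WT. Gsta4 was highest in JC-P, at 525 TPM. The enzymes of glutathione synthesis Gclc and Gclm lay within 2-fold in every comparison, at 74.9, 48.6 and 71.3 TPM and at 34.2, 31.8 and 47.7 TPM across JC-WT, JC-P and JC-M3. Of 8 organic anion uptake carriers, 4 were measured, and 2 were at least 2-fold lower for JC-M3 against JC-WT, as were 5.27% of all features. Slco2a1, the prostaglandin uptake carrier gene, stood at 162, 139 and 50.8 TPM, lowest in JC-M3 as Abcc4 was. Slco4a1, an organic anion carrier gene, stood at 99.9, 20.2 and 19.2 TPM and was already lower in JC-P.

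Sequences around the start site were at hand for 38 of the 50 genes, as RefSeq windows of 250 bases before to 50 bases after the start (GRCm38.p6), 45 windows in all. Windows of the 21 measured genes held a median of 23 CpG dinucleotides, against 7.5 in the windows of ABC genes under the filter and 7 in all 32851 windows of the table. The set of all windows was not filtered on the mean, and windows of measured features at large were not counted apart. The difference thus cannot be read as a trait of ABC genes. On both strands 4 motifs were searched. The antioxidant response element core TGACNNNGC was in 15.6% of ABC windows and 12.4% of all windows, the E-box CACGTG in 13.3% and 7.15%, and the SP1 motif GGGCGG in 46.7% and 35.7%. The DR4 element of the liver X receptor, searched only as an exact AGGTCA repeated after 4 bases of any kind, was in 0 ABC windows and 0.0152% of all windows. Elements that differ from this exact repeat were not searched or marked, so the count does not show that ABC windows lack them. A window is shown for each gene past 2-fold that has one, and for Abcb1b beside its neighbour, each 5' to 3' on the strand of the gene. Capitals mark matches to the motifs, and no matches overlapped each other. The Abcb1a window lies at chr5:8566841-8567140, upstream of the gene start that GENCODE M21 gives, and the Abcb1b window at chr5:8797897-8798196, both on the plus strand. On the minus strand lie those of Abcc4 at chr14:118706170-118706469, Abca1 at chr4:53159846-53160145, Abca9 at chr11:110168104-110168403 and Abcb9 at chr5:124095749-124096048.
Abcb1a: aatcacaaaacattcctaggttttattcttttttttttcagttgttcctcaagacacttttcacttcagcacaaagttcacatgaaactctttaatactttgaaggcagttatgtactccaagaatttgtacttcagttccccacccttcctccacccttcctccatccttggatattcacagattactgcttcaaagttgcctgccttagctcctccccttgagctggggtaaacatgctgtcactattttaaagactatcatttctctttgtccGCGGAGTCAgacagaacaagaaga
Abcb1b: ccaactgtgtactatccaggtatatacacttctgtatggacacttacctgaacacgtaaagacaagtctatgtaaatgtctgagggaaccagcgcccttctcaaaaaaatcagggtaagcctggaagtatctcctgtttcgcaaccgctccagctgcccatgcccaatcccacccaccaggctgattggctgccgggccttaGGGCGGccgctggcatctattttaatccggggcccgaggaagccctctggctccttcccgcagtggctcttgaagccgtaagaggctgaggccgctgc
Abcc4: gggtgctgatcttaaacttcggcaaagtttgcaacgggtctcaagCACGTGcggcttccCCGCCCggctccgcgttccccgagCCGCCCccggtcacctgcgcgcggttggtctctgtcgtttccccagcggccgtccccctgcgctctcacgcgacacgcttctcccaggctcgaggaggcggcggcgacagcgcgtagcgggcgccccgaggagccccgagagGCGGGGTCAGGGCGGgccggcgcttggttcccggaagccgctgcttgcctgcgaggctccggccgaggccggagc
Abca1: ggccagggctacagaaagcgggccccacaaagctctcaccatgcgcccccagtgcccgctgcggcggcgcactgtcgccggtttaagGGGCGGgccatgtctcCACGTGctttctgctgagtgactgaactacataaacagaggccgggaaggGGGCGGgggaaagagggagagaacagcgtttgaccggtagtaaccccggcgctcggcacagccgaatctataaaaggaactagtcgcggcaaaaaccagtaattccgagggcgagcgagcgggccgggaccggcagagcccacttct
Abca9: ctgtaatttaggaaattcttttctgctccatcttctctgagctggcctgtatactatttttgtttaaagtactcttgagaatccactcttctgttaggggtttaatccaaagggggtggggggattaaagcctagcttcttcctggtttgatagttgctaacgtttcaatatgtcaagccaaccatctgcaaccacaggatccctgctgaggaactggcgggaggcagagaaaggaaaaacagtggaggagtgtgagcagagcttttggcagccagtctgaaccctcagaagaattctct
Abcb9: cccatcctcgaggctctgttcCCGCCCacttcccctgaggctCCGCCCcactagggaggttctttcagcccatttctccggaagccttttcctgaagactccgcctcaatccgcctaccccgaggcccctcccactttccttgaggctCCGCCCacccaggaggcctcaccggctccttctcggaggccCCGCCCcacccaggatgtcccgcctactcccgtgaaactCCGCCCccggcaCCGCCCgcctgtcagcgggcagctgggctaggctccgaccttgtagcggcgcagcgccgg
The contents of the Abcb1a and Abcb1b windows differ, but the windows are not matched in place. The Abcb1a window ends at 8567140, before the gene start at 8660077, whereas the Abcb1b window spans its gene start at 8798147. Whether the measured Abcb1a transcripts start at the window shown was not tested. The Abcb1a window holds 2 CpG dinucleotides and an antioxidant response element core, and that of Abcb1b holds 12 and an SP1 motif. The Abcb9 window holds 6 SP1 motifs, the highest number in any ABC window. The Abcc4 window shown holds 41 CpG dinucleotides with all searched motifs except DR4, whereas that of Abca9 holds 2 and no match. Abcc4 has another RefSeq window, at chr14:118676882-118677181, which is not shown and holds 6 CpG dinucleotides and, of the motifs, only an antioxidant response element core. No searched motif stood in all the windows shown of genes past 2-fold, and a match is a description of letters only.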

How the data were processed

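The authors deposited TPM, reads per gene over gene length scaled to one total per library, per the file headers (TPM) and the totals of each column. Tools listed in the submitters' processing notes, which give no roles here, are STAR 2.7.9a, featureCounts and FastQC 0.11.9, with builds mm10 and GRCm38. The strand setting is not given in the sources used here, nor is the annotation release, so antisense partners cannot be told apart. Values were used as deposited, with log2 ratios of TPM + 0.5 for features averaging 1 TPM or more and calls at 2-fold. The design foresaw counts or TPM, and the table held TPM. Multiplying TPM by merged exon length (GENCODE M21) gave whole reads, within 0.01, for 98.4% to 98.6% of expressed features in the 3 libraries. That share covers features with a merged exon length and leaves out those with the most reads. All 50 ABC genes also gave whole reads, 10 of them as 0 reads in every library. Exact conditional (Clopper-Pearson) intervals and a floor of 3 reads per library came from these reads and cover counting error only. Shared windows of 50 bases, translated coding sequences and RefSeq windows served for sequence checks. Measured ABC genes were named, except 2 that are counted but not reported singly here. Of related lists, the 2 highest and lowest ratios per comparison could be named, and Nr1h2, Nr1h3, Gclc, Gclm, Lmbrd1 and the potassium channel genes were added as counterparts. Members, lists and rules were chosen with earlier results of these data known. Scripts were tested on simulated data. Software was matplotlib 3.10.9, scipy 1.17.1, numpy 2.4.6 and pandas 2.3.3 under Python 3.11.15.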

Additional observations from a re-analysis of the deposited data

How the results depend on the processing

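With 1 library per population nothing here separates a population from its culture. No paired analysis was possible because each population has 1 library. Scaling by trimmed means, or without mitochondrially encoded genes, moved 0 calls of ABC genes. Counts of ABC genes at least 2-fold apart moved as follows. For JC-P against JC-WT, the number higher was 1 with a pseudocount of 0.1 (Abca9) and 4 at a 1.5-fold threshold. For JC-M3 against JC-P, a 1.5-fold threshold gave 2 higher and 7 lower and a 3-fold threshold 0 lower, and the 3 genes lower were 2 with a pseudocount of 2 or an average of 5 TPM and 4 with no filter. For JC-M3 against JC-WT, the number higher was 1 with a pseudocount of 2, 1 when genes had to average 5 TPM and 0 at a 3-fold threshold, and the number lower was 1 with a pseudocount of 2, 6 at a 1.5-fold threshold, 4 with a pseudocount of 0.1, and 2 when genes had to average 5 TPM or at a 3-fold threshold. At 1.5-fold 3 were higher. The median of ABC genes for JC-M3 against JC-P was 0.0191 without the filter, whose removal adds genes near 0. Abca1 for JC-M3 against JC-WT passed 2-fold with a pseudocount of 0.1, at -1.08, and with the chromosome median subtracted, at -1.07. That subtraction was chosen after the data were seen and moved 15 of 84 ratios of single genes by more than their counting error. A repeated symbol could not be tried, as there were 0. Counts of all features are given as higher and lower. They were 692 and 339 for JC-P against JC-WT, 555 and 781 for JC-M3 against JC-P, and 892 and 766 for JC-M3 against JC-WT. In the same order, they were 898 and 410, 653 and 950, and 1071 and 874 with a pseudocount of 0.1. They were 361 and 173, 328 and 443, and 522 and 471 with a pseudocount of 2, and 1288 and 647, 1024 and 1288, and 1544 and 1147 with no filter. When features had to average 5 TPM, they were 264 and 120, 253 and 397, and 402 and 407. At 1.5-fold they were 1737 and 1003, 1456 and 1934, and 2039 and 1813, and at 3-fold 283 and 132, 219 and 306, and 382 and 319. The pseudocount and threshold settings kept the 28 ABC genes and 14527 features. Counts with no filter or an average of 5 TPM come from other numbers of genes and features, so they cannot be read as shares.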

Other observations

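The ABC genes of antigen processing carry other symbols and so lie outside the rule. Tap1 and Tap2, which together bring peptides into the endoplasmic reticulum, were lowest in JC-WT, unlike Abcb9, which was highest there. Tap1 stood at 29.6, 56.0 and 53.0 TPM across JC-WT, JC-P and JC-M3 and Tap2 at 87.0, 161 and 198 TPM. The ratio of JC-M3 against JC-WT was 0.83 for Tap1 and 1.18 for Tap2. Of 10 such genes and transporter partners, 7 were measured, and in that comparison Tap2 was the 1 at least 2-fold higher, with 0 lower. Of all features, 6.14% were higher and 5.27% lower there. Cftr, the chloride channel of the Abcc family, had 1, 0 and 1 reads.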
